A study of Mus musculus with 3 samples.

Results

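The genes described here are the transcriptional feedback inhibitors of ERK signalling, namely the MAP kinase phosphatases *Dusp1*, *Dusp4*, *Dusp5* and *Dusp6*, the Sprouty genes *Spry1*, *Spry2* and *Spry4*, and the Spred genes *Spred1* and *Spred2*. They were listed by symbol, and their values were not part of the rule, although earlier results of these data were known when the list was made. Of these 9 genes, 8 were found among the 15554 rows of the expression table, each in 1 row, and all 8 averaged 1 FPKM or more over the libraries, as did 9226 rows in all. *Dusp5* was not analysed here.

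The study stimulated NIH3T3 cells, an immortal fibroblast line of mouse embryonic origin, to ask whether GDF15 acts on fibroblasts as TGF-β does. The cells were kept in serum-free medium for 24 h and then for a further 24 h without stimulation (CTRL), with 100 ng/mL of GDF15 or with 4 ng/mL of TGF-β. All 3 groups were therefore deprived of serum, and each is 1 RNA-seq library of pooled RNA from a single cell line, so that a difference between libraries cannot be set against a spread between cultures and was not tested. FPKM (fragments per kilobase of exon, scaled to the mapped fragments) were used as deposited, and a change is a difference of log2(FPKM + 1), a scale that shrinks the changes of low genes. Where 3 values follow each other without a name, their order is CTRL, GDF15 and TGF-β.

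Fibroblast markers were abundant, with a sum of 7 markers between 8202 and 8613 FPKM in the 3 libraries. Within this sum, the collagen genes *Col1a1* (1103, 1669 and 1902 FPKM) and *Col1a2* (1233, 1841 and 1948 FPKM) were higher by more than 0.5 in both stimulated libraries. *S100a4* (3817, 2529 and 2942 FPKM) was lower by 0.59 in GDF15, or by 0.26 with the trend in transcript length removed, and *Pdgfra* was lower by more than 0.5 in TGF-β. The 6 epithelial and 4 endothelial markers were below 1 FPKM in every library. Of 4 leukocyte markers, *Ptprc* and *Cd3e* were below 1 FPKM, whereas *Cd68* and *Lyz2* were at 1.14 to 1.67 and 4.13 to 6.20 FPKM. A set of 5 genes known to respond to TGF-β, *Smad7*, *Skil*, *Pmepa1*, *Ctgf* and *Acta2*, were all higher in both stimulated libraries than in CTRL, by 0.25 to 2.08 in GDF15 and by 0.58 to 2.96 in TGF-β on the log2 scale. The depth was estimated from the steps between low FPKM values, in units of 1e6 fragments, at 17.3 in CTRL, 20.4 with GDF15 and 16.7 with TGF-β.

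Growth factor receptors activate ERK through Ras, Raf and MEK. Active ERK raises the transcription of genes whose products shut the pathway down again. The transcripts of some of these inhibitors, though not of all genes listed here, are widely used as a readout of ERK output. MAP kinase phosphatases remove phosphate from the activation loop of the kinase, Sprouty proteins hold back the signal between receptor and Raf, and Spred proteins bring the Ras inhibitor neurofibromin to the membrane.

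On the study's 2-fold criterion, 0 of the 8 genes differed between GDF15 and CTRL, where 0.289% of all rows did, and 0 of the 8 differed between TGF-β and CTRL, where 0.913% of all rows did. A lower threshold of 0.5 on the log2 scale, which is 1.41-fold, was applied to rows averaging 1 FPKM or more. By GDF15, 0 of the 8 genes passed it in either direction, against 1.95% of the rows that were higher and 2.94% that were lower. By TGF-β, 0 genes passed it upward, against 3.35% of the rows, and 1 gene passed it downward, against 4.92%. That gene was *Spry2*. With 8 genes, these counts lie near the shares of all rows. The split of all rows past 0.5 leaned on the scaling. By TGF-β, 40.5% of them were higher with FPKM as deposited, 54.1% with libraries scaled to a common upper quartile and 57.9% after subtraction of a running median by expression or by transcript length. By GDF15, the share was 39.9% as deposited, 53.7% with the median by expression subtracted and 65.3% with that by length. Of the rows over 2-fold by TGF-β, 63.4% were higher, and 73.9% with the median by length subtracted. Over the 8 genes, the median of the changes was -0.03 for GDF15 and -0.18 for TGF-β, and over the 9226 rows it was -0.03 and -0.07. With the running median by length subtracted the medians of the 8 genes were 0.020 and -0.11, and with that by expression subtracted the one for TGF-β was -0.096.

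Ordered by level per kilobase, *Spred1* stood first in every library and *Spry2* second, followed by *Dusp6*, *Spred2* and *Dusp1*, then *Dusp4* and *Spry1*, with *Spry4* last. Only neighbours changed places, *Dusp6* with *Spred2* in GDF15 and *Dusp4* with *Spry1* in both stimulated libraries. Without replicates it was not tested which neighbours in this order differ. The sum of the 8 genes was 187 FPKM in CTRL, 185 with GDF15 and 156 with TGF-β. Without *Spry2*, the sums were 137, 145 and 128 FPKM. By family, the phosphatases summed to 53.7, 48.8 and 50.7 FPKM, the Sprouty genes to 57.8, 49.7 and 36.1 FPKM and the Spred genes to 75.0, 86.8 and 68.8 FPKM. Relative to CTRL, the Sprouty sum was the lowest of the family sums in TGF-β. Of that Sprouty sum, *Spry2* held 86.5% in CTRL. *Spry4* was also lower in TGF-β than in CTRL, but *Spry1* was higher (7.74 against 6.35 FPKM).

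**Figure D1:**
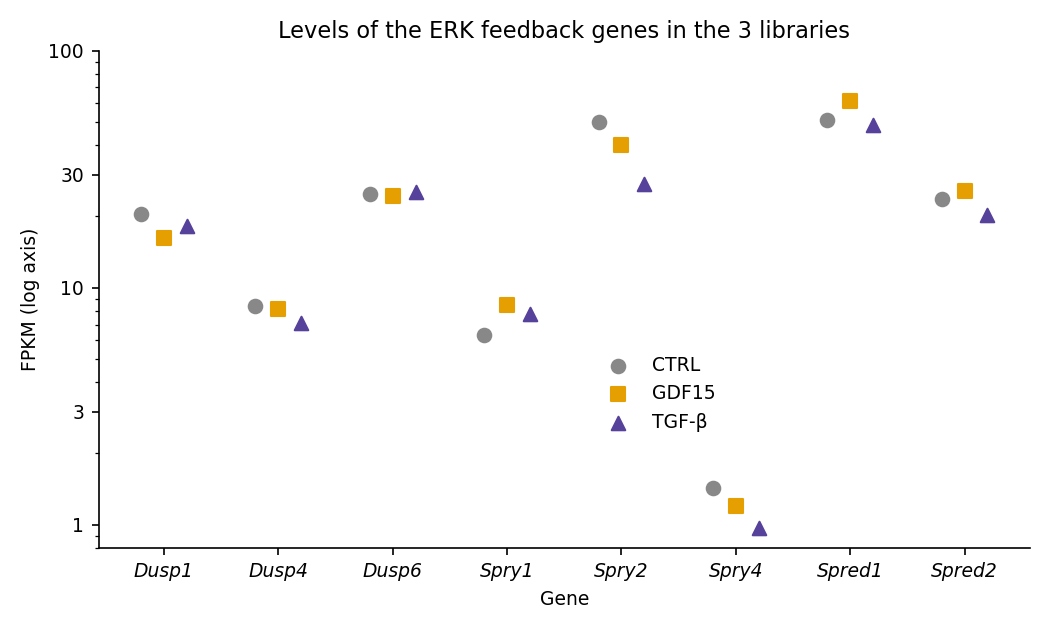
FPKM of the 8 feedback genes on a log axis, with 1 point for each library (grey circle CTRL, orange square GDF15, violet triangle TGF-β). *Spry2* descends from 50.01 in CTRL to 39.98 with GDF15 and 27.4 with TGF-β, whereas the 3 points of *Dusp6* lie between 24.5 and 25.3.

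*Spry2* encodes a Sprouty protein that is induced by growth factors and restrains receptor tyrosine kinase signalling. It lies on chromosome 14 (GRCm38, 105891947 to 105896819, minus strand), with 1 annotated coding transcript of 2087 bases. Its FPKM was 50.01 in CTRL, 39.98 with GDF15 and 27.4 with TGF-β, an estimated 1802 (95% Poisson interval 1720 to 1887), 1704 (1624 to 1786) and 954 (895 to 1017) fragments. In bulk RNA, fewer cells expressing a gene and less RNA per cell cannot be told apart. The level in TGF-β was thus 54.8% of that in CTRL, and the level in GDF15 was 80.0% of it. With TGF-β the change was -0.84 and with GDF15 it was -0.32, beside a local spread of 0.22 and 0.21. The local spread is a robust SD, taken from the median absolute deviation of the changes of 501 rows adjacent in level. Among these 501 rows, *Spry2* included, 4 fell at least as far by TGF-β and 47 by GDF15. In the comparison of the stimulated libraries with each other, which does not use CTRL, *Spry2* was lower by 0.53 in TGF-β, and 5 of the 501 rows were lower to at least that extent. It was the only gene of the 8 past 0.5 in that comparison, where 1.30% of the rows were lower by more than 0.5 and 1.29% higher. With libraries scaled to a common upper quartile, the difference was -0.50 and no longer passed.

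*Spry1*, the paralog of *Spry2*, went the other way. It lies on chromosome 3 (37639947 to 37644598, plus strand), and its FPKM was 6.35 in CTRL, 8.47 with GDF15 and 7.74 with TGF-β. The changes, 0.37 by GDF15 and 0.25 by TGF-β, were the highest of the 8 genes in both comparisons but did not reach 0.5. Of the 501 rows nearest in level, 19 rose at least as far by GDF15 and 36 by TGF-β. A transcript annotated on the opposite strand, *Gm42922*, overlaps 710 bases of its exons, and whether strand was used in counting is not given in the sources used here. *Spry2* was 7.87 times as high as *Spry1* in CTRL, 4.72 times with GDF15 and 3.54 times with TGF-β. Of the FPKM of *Spry1*, *Spry2* and *Spry4* together, *Spry2* held 86.5% in CTRL, 80.5% with GDF15 and 75.9% with TGF-β.

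The bases before the annotated start of *Spry2* and *Spry1* are shown because these paralogs had the lowest and the highest change by TGF-β, and those of *Dusp1* because they alone held a cyclic AMP response element among the 6 feedback genes that RefSeq (GRCm38.p6) gave a promoter for. Each run is the 250 bases up to the start, on the strand of the gene. *Spry2* is at chr14:105896820-105897069 on the minus strand, *Spry1* at chr3:37639697-37639946 on the plus strand and *Dusp1* at chr17:26508473-26508722 on the minus strand. The annotation also holds a *Dusp1* transcript that starts further upstream. Capitals mark matches to the motifs searched.
Spry2: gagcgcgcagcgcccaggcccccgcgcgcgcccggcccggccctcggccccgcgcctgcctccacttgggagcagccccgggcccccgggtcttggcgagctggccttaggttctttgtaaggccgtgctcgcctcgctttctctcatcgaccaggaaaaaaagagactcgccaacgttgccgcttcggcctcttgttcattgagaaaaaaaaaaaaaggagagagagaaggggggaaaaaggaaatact
Spry1: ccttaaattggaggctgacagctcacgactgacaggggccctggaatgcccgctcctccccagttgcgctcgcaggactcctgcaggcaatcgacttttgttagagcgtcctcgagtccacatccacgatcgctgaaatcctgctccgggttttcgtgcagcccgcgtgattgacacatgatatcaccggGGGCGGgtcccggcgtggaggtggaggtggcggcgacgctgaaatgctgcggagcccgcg
Dusp1: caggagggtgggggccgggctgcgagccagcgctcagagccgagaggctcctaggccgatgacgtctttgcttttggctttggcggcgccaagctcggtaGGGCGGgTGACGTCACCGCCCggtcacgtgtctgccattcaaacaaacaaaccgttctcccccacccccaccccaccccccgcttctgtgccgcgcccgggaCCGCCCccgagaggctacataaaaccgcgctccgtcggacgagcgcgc

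These windows were searched on both strands for 7 motifs. They were AP-1 (TGANTCA), the cyclic AMP response element (TGACGTCA), an ETS motif (CCGGAAG), the GC box (GGGCGG), the Smad box (GTCTAGAC), an E2F motif (TTTCCCGC) and the CArG box of serum response factor. None of these matches overlapped another in the 6 windows. *Spry2* and *Dusp6* held 0 of the 7. *Spry1* held 1 GC box, and *Dusp1* held the response element at bases -143 to -136 with a GC box on either side of it and another at -48 to -43. *Spred1* and *Spred2* held GC boxes only. Of all 32851 RefSeq promoter windows of this length, 32.7% held a GC box and 1.55% the cyclic AMP response element, 6.75% held AP-1, 6.91% the ETS motif, 1.47% the CArG box, 0.895% the E2F motif and 0.167% the Smad box. The windows of *Spry1* and *Spry2* were both 62.4% G and C, against a median of 52.4% over all promoters.

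*Spry4*, the Sprouty gene expressed least, lies on chromosome 18 (38586247 to 38601415, minus strand). Its FPKM was 1.44 in CTRL, 1.20 with GDF15 and 0.970 with TGF-β. Like *Spry2*, it was lowest in TGF-β, with changes of -0.15 by GDF15 and -0.31 by TGF-β. At this level the pseudocount matters, and without it the change by TGF-β was -0.57. The estimated number of fragments was 118 in CTRL (95% Poisson interval 97.6 to 141), 117 in GDF15 (96.4 to 140) and 77.0 in TGF-β (60.7 to 96.2). These intervals cover counting error only, and they rest on the estimated depth and on the longest coding transcript of 4755 bases.

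The MAP kinase phosphatases stayed within 0.5 of CTRL in both stimulated libraries. *Dusp6*, which acts on ERK in the cytoplasm and is the classical ERK readout of the family, had an FPKM of 24.9 in CTRL, 24.5 with GDF15 and 25.3 with TGF-β. On the log2 scale its 3 values lay closer together than those of any other gene of the 8, with changes of -0.02 and 0.02. *Dusp1*, a nuclear phosphatase that also acts on other MAP kinases, had an FPKM of 20.4 in CTRL, 16.2 with GDF15 and 18.3 with TGF-β. Its change by GDF15, -0.32, was the lowest of the 8 genes together with that of *Spry2*, and 55 of the 501 rows nearest in level fell at least as far. Its change by TGF-β was -0.15, or -0.030 with the running median by length subtracted. *Dusp4*, another nuclear phosphatase, had an FPKM of 8.40 in CTRL, 8.12 with GDF15 and 7.08 with TGF-β, and 123 of 501 rows fell at least as far as it did by TGF-β (-0.22).

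The 24 bases that encode the catalytic signature are shown because all 3 phosphatases hold it. A histidine and the catalytic cysteine at the left end and an arginine at the right end of the signature are in capitals, with the 5 residues between them in lower case. *Dusp1* lies on chromosome 17 (26505590 to 26562128, minus strand), *Dusp4* on chromosome 8 (34807297 to 34819894, plus strand) and *Dusp6* on chromosome 10 (99263231 to 99267489, plus strand).
Dusp1: CATTGCcaggccggcatctccCGG
Dusp4: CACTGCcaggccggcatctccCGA
Dusp6: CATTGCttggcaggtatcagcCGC

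In these 24 bases, *Dusp1* and *Dusp4* shared 22, *Dusp1* and *Dusp6* 17, and *Dusp4* and *Dusp6* 16. Sharing with other genes was searched for only as exact words of the read length, without mismatches. Of the 50-base words in the longest coding transcripts, 50 being the read length, 0 were shared with a transcript of another gene for *Dusp1*, *Dusp4*, *Dusp6*, *Spry1*, *Spry2*, *Spry4* and *Spred1*. For *Spred2*, 62 of 4400 words were shared, with *Gm14612*.

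The Spred genes differed most between the stimuli after *Spry2*. *Spred1*, on chromosome 2 (117121374 to 117182279, plus strand), had an FPKM of 51.2 in CTRL, 61.1 with GDF15 and 48.6 with TGF-β. *Spred2*, on chromosome 11 (19924375 to 20024026, plus strand), was at 23.8, 25.7 and 20.2 FPKM. Both were highest in GDF15 and lowest in TGF-β. Between the stimulated libraries, *Spred1* was lower in TGF-β by 0.32 and *Spred2* by 0.33, with a local spread of 0.13 and 0.14. Of the 501 rows nearest in level, 13 and 18 were lower to at least that extent. Against CTRL, the changes were 0.25 and 0.11 by GDF15 and -0.07 and -0.23 by TGF-β. In that direct comparison 6 of the 8 feedback genes were lower in TGF-β, with a median of -0.17 over the 8, against 5566 of 9226 rows with a median of -0.04. The median of the 8 was -0.25 without a pseudocount and -0.11 with the running median by length subtracted. This shift was not particular to these genes. Of 7 other inhibitors of receptor and Ras signalling, described below, 7 were lower (median -0.18), and of 8 growth factor receptors 6 were (median -0.24). Of 16 ERK cascade genes 10 were lower (median -0.03), of 18 ERK-induced transcripts 9 (median 0.005) and of 4 family relatives 2 (median 0.07). With the running median by length subtracted, the medians of the inhibitors and receptors were -0.06 and -0.14.

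**Figure D2:**
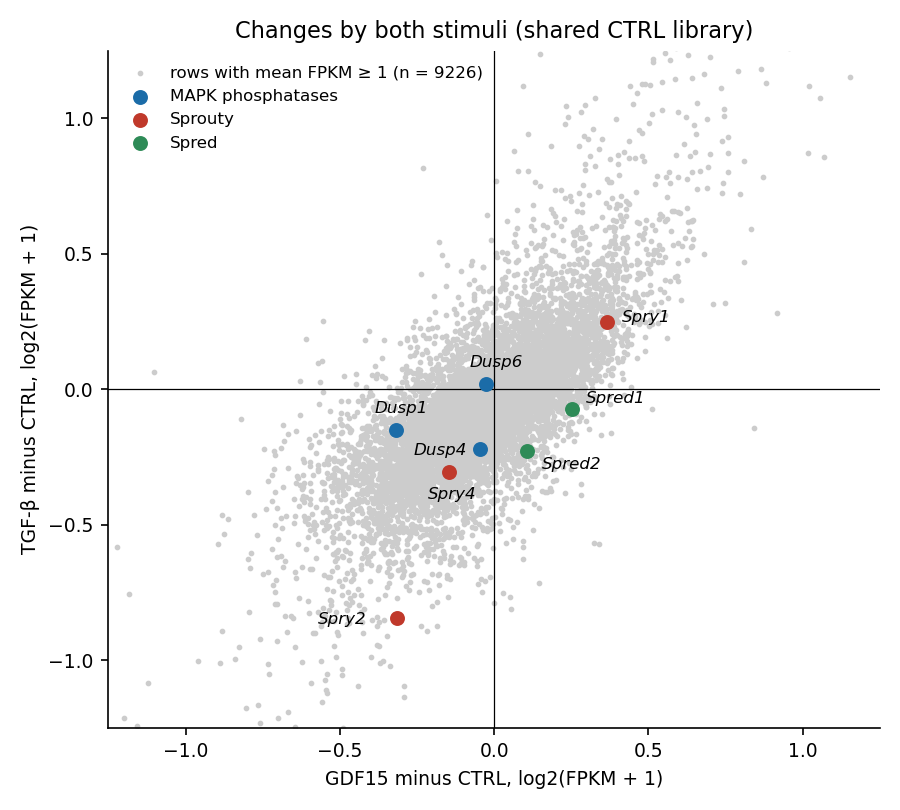
Change by GDF15 (horizontal) and by TGF-β (vertical) on the log2(FPKM + 1) scale, with rows averaging 1 FPKM or more in grey and the 8 feedback genes coloured by family. Both axes subtract the same CTRL library. *Spry2* lies lowest at -0.32 and -0.84, *Spry1* at 0.37 and 0.25 on the upper right, and 71 grey rows fall outside the axes.

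The changes by GDF15 moved with transcript length in these libraries. Across 5403 rows averaging 10 FPKM or more, whose points share the same 3 libraries, Spearman's rho between the length of the longest coding transcript and the change was 0.52 by GDF15, 0.26 by TGF-β and -0.36 for TGF-β against GDF15. By GDF15, the median over these rows was -0.09 for transcripts over 1500 and up to 3000 bases and 0.10 for those over 5000 and up to 8000 bases. *Dusp1* (1990 bases) and *Spry2* (2087 bases) are the shortest of the 8 and *Spred1* (6016 bases) is the longest. With the running median by length subtracted, the change by GDF15 was -0.21 for *Dusp1*, -0.23 for *Spry2*, 0.15 for *Spred1*, 0.08 for *Spred2* and 0.42 for *Spry1*. The change of *Spry2* by TGF-β was then -0.73, and its difference between TGF-β and GDF15 was -0.52. For *Spred1* and *Spred2* that difference became -0.23 and -0.27.

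**Figure D3:**
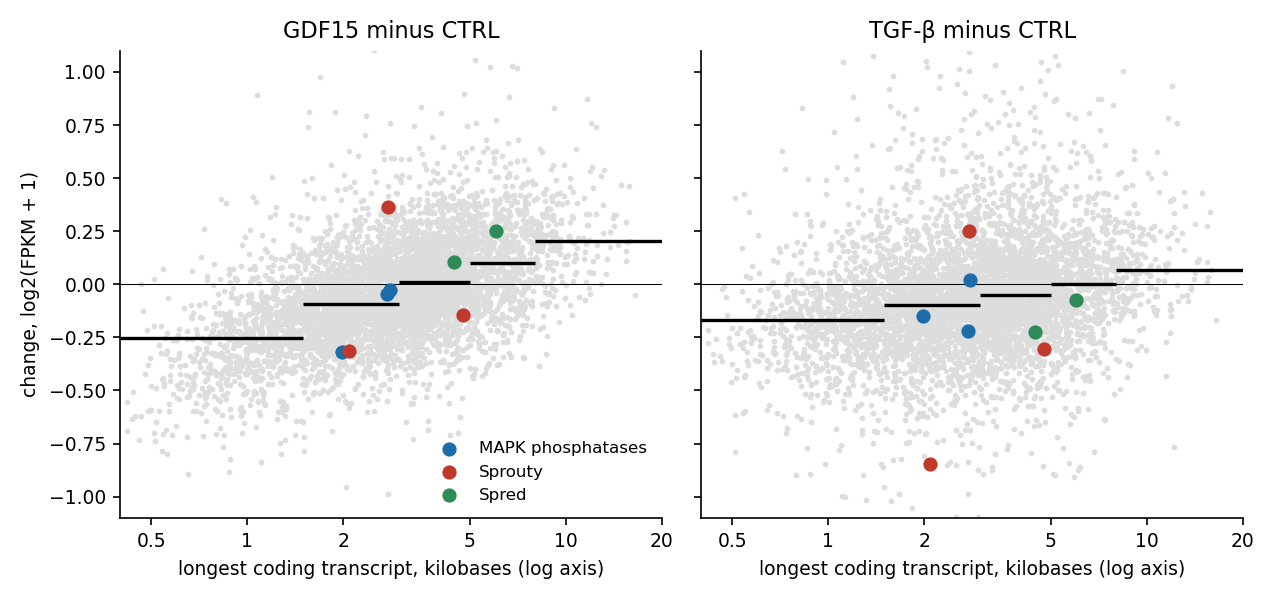
Change against the length of the longest coding transcript (log axis, kilobases), for GDF15 on the left and TGF-β on the right. Grey points are rows averaging 10 FPKM or more, black bars are their medians in 5 length classes, and coloured points are the 8 feedback genes. The bars climb from -0.25 to 0.20 by GDF15 and from -0.17 to 0.07 by TGF-β, and *Spry2*, at -0.84 by TGF-β, lies far under the bar of its class.

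Relatives of these families, which are no members of the list, were taken as a further comparison. *Dusp7*, a cytoplasmic ERK phosphatase, and *Dusp10*, which prefers stress-activated MAP kinases, were lower in both stimulated libraries without reaching 0.5, with an FPKM of 18.6 in CTRL, 16.1 with GDF15 and 14.1 with TGF-β for *Dusp7* and of 15.3, 13.1 and 12.2 for *Dusp10*. *Spred3* was at 8.37, 6.18 and 7.47 FPKM, lowest in GDF15, where *Spred1* and *Spred2* were highest. *Dusp8*, which also prefers stress-activated kinases, was the exception, with an FPKM of 1.58 in CTRL, 2.49 with GDF15 and 3.66 with TGF-β. It differed from CTRL by 0.44 with GDF15 and by 0.85 with TGF-β, and 8 of the 501 rows nearest in level rose at least as far by TGF-β. With a pseudocount of 1, 3.35% of all rows were higher by more than 0.5 by TGF-β. At this level the pseudocount matters, and without it the differences of *Dusp8* were 0.66 and 1.21, past 0.5 by GDF15 and past 2-fold by TGF-β. In either direction, 668 of 9225 rows then passed 0.5 by GDF15, and 789 of 11081 passed 2-fold by TGF-β. Of the 4755 words of 50 bases in *Dusp8*, 9 were shared with other genes. *Dusp2* was below 1 FPKM in all libraries, and *Dusp9*, *Dusp16* and *Spry3* were not analysed here.

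Among 7 other inhibitors of receptor and Ras signalling, 0 passed 0.5 by GDF15 and 1 passed it downward by TGF-β, where 4.92% of all rows did. By GDF15, 1.95% of all rows were higher and 2.94% lower by more than 0.5, so that both counts are near the shares of all rows. This was *Errfi1*, a feedback inhibitor of the EGF receptor, with an FPKM of 22.1 in CTRL, 17.8 with GDF15 and 13.7 with TGF-β and a change of -0.65 by TGF-β. Only 6 of 501 rows of similar level fell at least as far. The other 6 (*Il17rd*, *Lrig1*, *Nf1*, *Cbl*, *Cblb* and *Pebp1*) ranged from -0.26 to 0.24 by TGF-β.

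For the kinase cascade itself, the counts were near those of all rows. Of 16 genes from adaptors to ERK, 0 passed 0.5 by GDF15, and by TGF-β 1 did, *Ksr1*, a scaffold for Raf, MEK and ERK, which went from 3.48 FPKM in CTRL to 2.49 with GDF15 and 1.99 with TGF-β. By GDF15, 1.95% of all rows were higher and 2.94% lower by more than 0.5, and by TGF-β 3.35% and 4.92% were. The medians of the cascade were 0.09 by GDF15 and -0.01 by TGF-β, the former 0.022 with the running median by length subtracted and the latter 0.06 with a common upper quartile.

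Transcripts that ERK induces were described in the same way. Of 20 such genes, 18 averaged 1 FPKM or more, and 15 of these were lower than CTRL with GDF15 and 13 with TGF-β, against 5129 and 5797 of the 9226 rows. The medians were -0.19 and -0.21, and with the running median by length subtracted -0.17 and -0.13, when 14 and 12 of the 18 were lower. In GDF15, 2 of the 18 were lower by more than 0.5, where 2.94% of all rows were, and in TGF-β, 4 were, where 4.92% were. These counts were 1 and 3 with the running median by expression subtracted, and 4 and 4 with a pseudocount of 0.5. With a pseudocount of 1, 0 were higher by more than 0.5 in either library, and with 0.1 or none 1 was in each. This was *Fos*, the founding immediate early gene of AP-1, at 0.734, 1.16 and 1.16 FPKM, with changes of 0.32 and 0.31 at a pseudocount of 1 and of 0.66 and 0.65 without it. *Plaur*, the urokinase receptor, had an FPKM of 19.7 in CTRL, 11.6 with GDF15 and 14.6 with TGF-β. *Fosl1*, an AP-1 subunit, was at 17.1, 11.9 and 10.2 FPKM. *Egr1*, an immediate early transcription factor, was at 27.4, 22.4 and 17.2 FPKM, and *Phlda1* at 9.74, 7.65 and 5.76 FPKM. The others past 0.5 were *Ier3* by GDF15 (-0.51) and *Egr3* by TGF-β (-0.56), which with the median by expression subtracted stood at -0.46 and -0.499. Subtraction by length left *Ier3* at -0.27. Between the stimulated libraries, 9 of the 18 were higher and 9 lower in TGF-β. With a common upper quartile 11 were higher and 7 lower, and with either running median subtracted 12 were higher and 6 lower. *Etv5*, an ETS factor that is a standard ERK target, was at 20.2, 20.7 and 20.4 FPKM, and *Ccnd1*, cyclin D1, at 85.8, 80.0 and 73.7 FPKM.

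**Figure D4:**
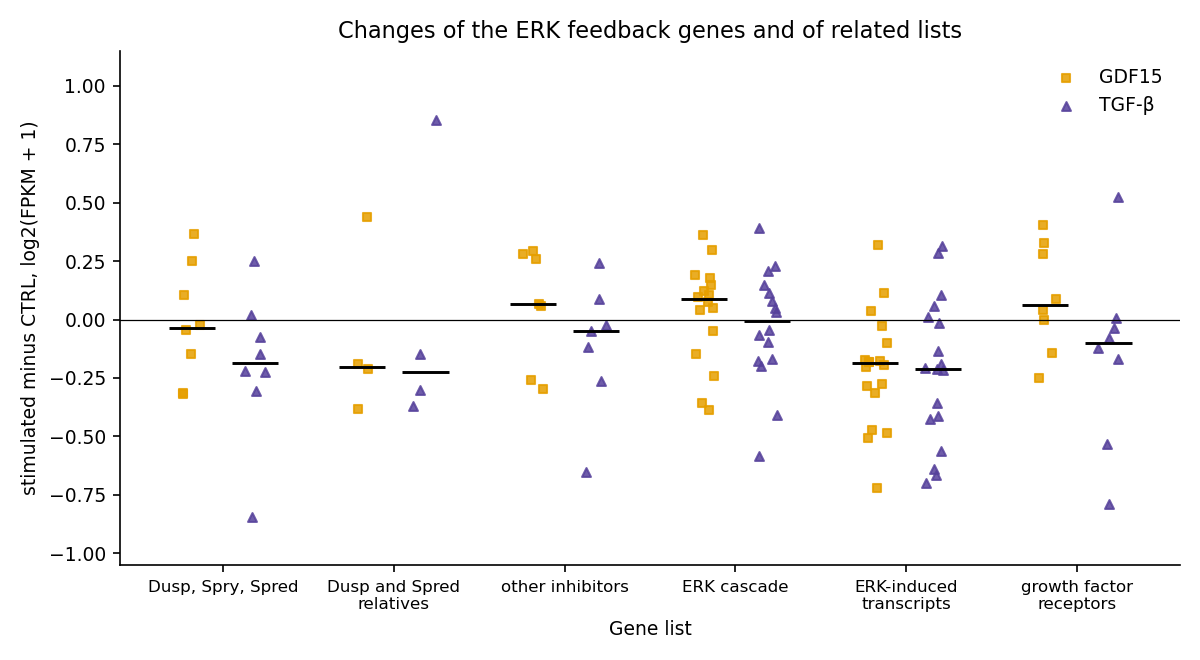
Change against CTRL on the log2(FPKM + 1) scale for genes averaging 1 FPKM or more, by list, with orange squares for GDF15, violet triangles for TGF-β and black bars for medians. The ERK-induced transcripts have medians of -0.19 and -0.21, the 8 feedback genes of -0.03 and -0.18, and the ERK cascade of 0.09 and -0.01.

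Of the receptors upstream, 8 of 10 averaged 1 FPKM or more. By TGF-β, where 4.92% of all rows were lower and 3.35% higher by more than 0.5, *Pdgfra* and *Fgfr1* were lower by more than 0.5 and *Igf1r* was higher. *Pdgfra*, a receptor for platelet-derived growth factor, had an FPKM of 61.3 in CTRL, 61.3 with GDF15 and 35.0 with TGF-β, and *Fgfr1*, a receptor for fibroblast growth factors, of 107, 89.7 and 73.7. *Igf1r*, the receptor for insulin-like growth factor, was at 15.9, 21.4 and 23.3 FPKM. By GDF15, 0 of the 8 receptors passed 0.5, where 1.95% of all rows were higher and 2.94% lower by that much. The calls of *Fgfr1* and *Igf1r* rested on the scaling. The change of *Fgfr1* by TGF-β was -0.53 as deposited and -0.47 with a common upper quartile, and that of *Igf1r* was 0.52 as deposited and 0.47 with the running median by length subtracted.

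The 5 rows nearest to *Spry2* in the plane of both changes were *Plk1*, *Cenpa*, *Gbp2*, *Ctsl* and *Rgmb*, at distances of 0.01 to 0.06. Over 3 libraries many rows share a pattern, and 69 rows averaging 1 FPKM or more lay within 0.2 of *Spry2*. *Plk1*, a mitotic kinase, had an FPKM of 11.0 in CTRL, 8.64 with GDF15 and 5.66 with TGF-β, and *Cenpa*, the centromeric histone, of 20.6, 16.5 and 11.0. *Gbp2* was at 14.9, 11.4 and 7.83 FPKM, *Ctsl* at 1772, 1368 and 977 FPKM and *Rgmb* at 40.1, 30.6 and 21.9 FPKM. Whether these rows share a function with *Spry2* was not tested.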

How the data were processed

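Total RNA was extracted from NIH3T3 fibroblasts, and 3 RNA samples per treatment were pooled before 1 stranded mRNA library was sequenced in single-end mode with 50-base reads. The submitters' processing notes name TopHat 1.3.2, Bowtie 0.12.9, Cufflinks 2.0.2 and the mouse build mm10, and the gene annotation is not given in the sources used here. The authors deposited FPKM for 15554 protein coding genes reviewed in UniProt. Columns were matched to treatments by name.

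From these FPKM, log2(FPKM + 1) and its differences between libraries were calculated, with thresholds of 1 and 0.5. With 1 library per treatment no test was possible. The feedback genes and the gene lists were chosen with earlier results of these data known. Genes outside the family were named when they passed 0.5 by either stimulus, at most 4 per list, except that the 5 TGF-β response genes were all named, and *Etv5* and *Ccnd1* were chosen after their values were seen, as were *Fos*, *Ier3*, *Egr3*, *Il17rd*, *Lrig1*, *Nf1*, *Cbl*, *Cblb*, *Pebp1*, *Cd68*, *Lyz2*, *Ptprc* and *Cd3e*, which complete their counts. The rows nearest *Spry2* in both changes were named as the 5 of least distance.

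Transcripts and positions came from GENCODE M21 (GRCm38, the same assembly as mm10), which matched 14713 rows by symbol and 749 by an older symbol. The depth was taken as the inverse of the most frequent low value of FPKM multiplied by transcript length, over genes with a single coding transcript. Fragment numbers are estimates, and intervals cover counting error only. The catalytic signature was found in the longest open reading frame. The calculation of counts past a fold and of local spreads was run on simulated data. The simulated noise was drawn from the local spread of these data by TGF-β, so that its recovery was built in. This run checks the calculation only and cannot measure a spread between cultures. There were 7 alternatives, namely pseudocounts of 0.5, 0.1 and 0, another filter, a common upper quartile, and subtraction of the running median by expression or by transcript length. Python 3.11.15 was used with pandas 2.3.3, numpy 2.4.6, matplotlib 3.10.9 and scipy 1.17.1.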

Additional observations from a re-analysis of the deposited data

Results flagged for a closer look

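*Dusp6*, *Spred1* and *Spred2* lay on opposite sides of CTRL in the stimulated libraries. *Spred1* was at 0.25 with GDF15 and -0.073 with TGF-β, *Spred2* at 0.11 and -0.23, and *Dusp6* at -0.025 and 0.019. The difference between the stimuli was not tested, since each is 1 library and both changes share CTRL. For *Dusp6* the change by GDF15 was 0.007 with a common upper quartile, 0.019 with the running median by expression subtracted and 0.026 with that by length, so that both changes then had the same sign. For *Spred1* the change by TGF-β was near the median of all rows (-0.074), and it was -0.009 with a common upper quartile and -0.001 with the running median by expression subtracted, so that it did not stand apart from CTRL under these settings.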

How the results depend on the processing

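No paired analysis was possible because every treatment was sequenced as 1 pooled library, which also left no replicate to omit. The number of feedback genes over 2-fold was 0 by both stimuli under all 7 alternatives, and the number past 0.5 by GDF15 was 0 under each of them. By TGF-β, *Spry2* passed 0.5 under each of them, and with a pseudocount of 0.1 or without a pseudocount 2 genes passed, *Spry2* and *Spry4* (-0.52 and -0.57 for the latter), while the rows past 0.5 grew from 763 of 9226 to 1016 and, without a pseudocount, to 1047 of 9225. The change of *Spry2* by TGF-β ranged from -0.87 to -0.73, and its difference from GDF15 from -0.54 to -0.50, so that with a common upper quartile it no longer passed 0.5. Each of the 168 alternative values of the 8 genes lay less than 1 local spread from the value reported. Over all 15554 rows, the number over 2-fold by GDF15 was 45 as reported and 71 and 315 with pseudocounts of 0.5 and 0.1, and by TGF-β it was 142 as reported and 489 with 0.1. Without a pseudocount it was 589 by GDF15 and 789 by TGF-β, over the 11081 rows above 0 in all 3 libraries. The number past 0.5 by GDF15 was 451 of 9226 and became 274 with the running median by length subtracted. Depth limits *Spry4* most, at an estimated 77.0 fragments in TGF-β.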
